A study of Mus musculus with 24 samples.

Results

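The neutrophil granule genes described here are 10 genes chosen by symbol, namely Camp, Ltf, Ngp, Lcn2, Olfm4, Mmp8, S100a8, S100a9, Elane and Mpo. All 10 had a row among the 54309 gene models of the raw count table. Their RNA was measured in mouse bone marrow-derived dendritic cells (BMDC), made by growing bulk bone marrow for 7 days in medium rich in GM-CSF. The groups were Mutant cells with the BRAF-V600E inhibitor, Mutant cells without it, WT cells with it and WT cells without it, each read as polysome RNA and as total RNA, which gives 8 groups of 3 libraries and 24 in all. The Mutant genotype is called LCH here, after the series' own name for BMDC that carry BRAF-V600E, the kinase change of Langerhans cell histiocytosis. Every group, the WT one without inhibitor included, received LPS for 3 h at a labelled dose of 100 ug per mL, whose unit was not checked, and a pulse of cycloheximide at 100 ug per mL. The inhibitor was given for 1 h before LPS. The promoter or Cre that drives the mutation, the age of the mice and what each pool holds are not given in the sources used here. Polysome RNA came from 500 uL of pooled gradient fractions with more than 2 polysomes, and total RNA from an aliquot of the same cells.

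Neutrophils build their granules in waves as they mature in the bone marrow. Primary (azurophil) granules are filled first, with myeloperoxidase (Mpo) and neutrophil elastase (Elane). Secondary (specific) granules follow, with lactoferrin (Ltf), the cathelicidin precursor (Camp), neutrophilic granule protein (Ngp), lipocalin 2 (Lcn2), olfactomedin 4 (Olfm4) and the collagenase Mmp8. S100a8 and S100a9 form calprotectin, which is a cytosolic protein complex and not a granule one. GM-CSF cultures of bone marrow are known to hold granulocytes and macrophages beside dendritic cells. Lcn2, S100a8 and S100a9 are not confined to neutrophils, since macrophages can also make them after inflammatory stimuli.

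The counts behind these values were ample in total RNA and thin in WT polysome RNA. Total RNA libraries held 19046640 to 39792221 counts in LCH and 19062502 to 20484170 in WT, and the 10 genes together took 0.0417 to 0.0936% of LCH and 0.175 to 0.5% of WT counts. LCH pool G had a count in 38431 genes with inhibitor and 37388 without, against 16837 to 18406 genes in the other total RNA libraries. The polysome libraries labelled GH had 36772 and 27571, against 13505 or fewer in the other polysome libraries. The cause was not tested. All 10 genes passed the low-count filter in total RNA and 9 of 10 in polysome RNA, where Olfm4 did not. Levels are given as CPM, counts divided by the TMM-scaled library total and multiplied by 1e6. All 12 dendritic cell markers were measured in every total RNA group. Their summed level was 12389 to 15504 CPM in LCH and 8690.0 to 13266 CPM in WT without inhibitor. With inhibitor it was 15258 to 15711 CPM in LCH and 7310 to 13371 CPM in WT. The eosinophil and the macrophage and monocyte lists were also measured in every such group, so this presence cannot test the labelled cell type. The cultures are bulk samples, so that fewer cells of a type and less RNA per cell cannot be told apart in any result that follows.

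Without inhibitor, 9 of the 10 granule genes were lower in LCH than in WT total RNA, by 2.14 to 10.4 times, and 1, Mmp8, did not pass the test. The test was edgeR's quasi-likelihood test with Benjamini-Hochberg adjustment over 13375 genes and a threshold of 0.05, by which 14.9% of all genes were lower and 29.7% changed in either direction. In each of the 9, every LCH library lay below every WT library, which held for 22.1% of all genes. The median log2 fold change of all genes was 0.02.

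Among the secondary granule genes, Camp, the precursor of the antimicrobial cathelicidin peptide, fell by the most after Olfm4. Camp measured 4.80, 2.64 and 1.92 CPM in LCH pools E, F and G, against 22.4, 27.2 and 39.7 CPM in WT pools A, BD and C. The log2 fold change was -3.26 (SE 0.395, edgeR adjusted p = 0.000271), or 9.60 times lower. Ngp, a cathelicidin relative of mouse neutrophil granules, moved with it. Ngp measured 103, 76.6 and 57.8 CPM in LCH pools E, F and G, against 346, 562 and 821 CPM in WT pools A, BD and C, a log2 fold change of -2.87 (SE 0.405, edgeR adjusted p = 0.000651). All 3 LCH libraries lay far below the WT range, and the WT pools spread from A, the lowest, up to C, the highest.

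Ltf, which binds iron and so withholds it from bacteria, fell as well. Ltf measured 37.0, 30.4 and 25.9 CPM in LCH pools E, F and G, against 118, 153 and 242 CPM in WT pools A, BD and C. The log2 fold change of Ltf was -2.46 (SE 0.334, edgeR adjusted p = 0.000527). Olfm4 marks a subset of neutrophils by its protein in specific granules. Olfm4 measured 2.47, 1.90 and 0.997 CPM in LCH pools E, F and G, against 11.7, 14.9 and 28.7 CPM in WT pools A, BD and C, and the log2 fold change was -3.38 (SE 0.501, edgeR adjusted p = 0.000848). The LCH values of Olfm4 rest on 27 to 54 counts a library, and those of Camp (52 to 105) and Elane (59 to 76) are also few. The low counts limit how exact these values are.

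Lcn2, which binds bacterial siderophores, had the smallest called difference. Lcn2 measured 171, 170.0 and 136 CPM in LCH pools E, F and G, against 244, 301 and 475 CPM in WT pools A, BD and C. The log2 fold change was -1.10 (SE 0.291, edgeR adjusted p = 0.0167), or 2.14 times lower. The libraries of the genotypes did not overlap, but the call was lost without the low-count filter (log2 fold change -1.11, adjusted p 0.12) and, at values of -1.16, -1.16, -0.995 and -0.79, without LCH pool E, LCH pool F, LCH pool G or WT pool C (adjusted p 0.0502 to 0.085).

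Mmp8, the neutrophil collagenase, stood apart from the other secondary granule genes. Mmp8 measured 324, 364 and 244 CPM in LCH pools E, F and G, against 339, 416 and 375 CPM in WT pools A, BD and C. LCH pool F lay above WT pool A, so the groups overlapped. The log2 fold change of -0.28 (SE 0.154, edgeR adjusted p = 0.196) did not pass the test.

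The calprotectin subunits fell by like amounts. S100a8 measured 81.3, 74.5 and 69.2 CPM in LCH pools E, F and G, against 224, 404 and 637 CPM in WT pools A, BD and C, a log2 fold change of -2.49 (SE 0.346, edgeR adjusted p = 0.00058). S100a9 measured 117, 104 and 90.6 CPM in LCH pools E, F and G, against 382, 701 and 1052 CPM in WT pools A, BD and C, a log2 fold change of -2.78 (SE 0.375, edgeR adjusted p = 0.000499). Both genes were nearly level across the LCH pools, while the WT pools spread widely, from pool A at the low end to pool C at the high end.

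Both primary granule genes were lower too, from low levels. Elane measured 2.70, 3.71 and 2.81 CPM in LCH pools E, F and G, against 7.49, 20.7 and 24.9 CPM in WT pools A, BD and C. Its log2 fold change was -2.53 (SE 0.489, edgeR adjusted p = 0.0036). Mpo measured 8.14, 7.22 and 4.73 CPM in LCH pools E, F and G, against 15.8, 49.4 and 59.3 CPM in WT pools A, BD and C, with a log2 fold change of -2.64 (SE 0.528, edgeR adjusted p = 0.00491). WT pool A lay much nearer to the LCH range than pools BD and C did, for the elastase gene as for the peroxidase gene.

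**Figure D1:**
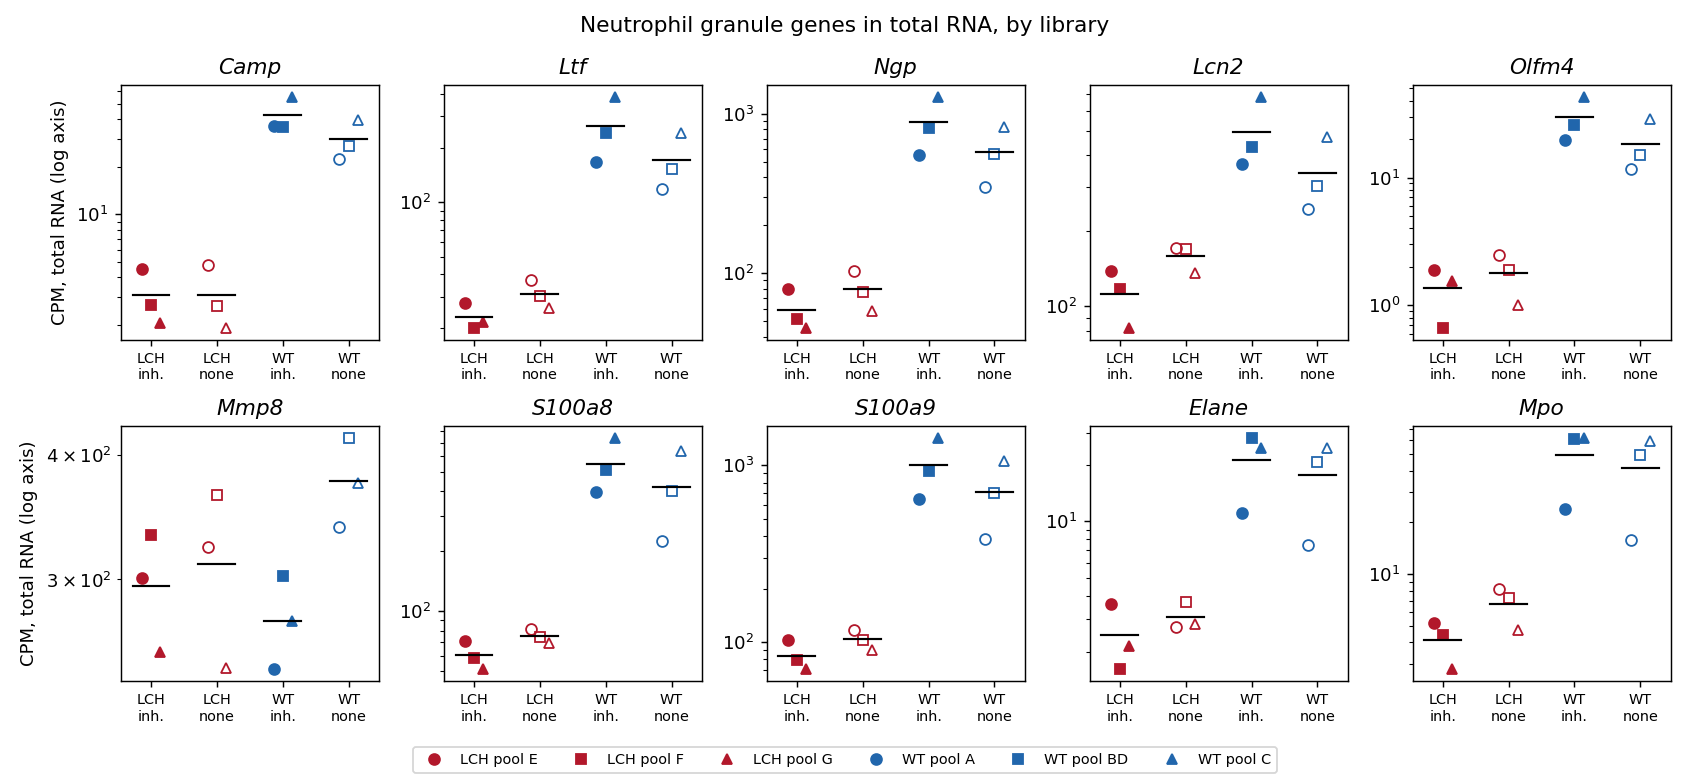
Total RNA level of each granule gene in CPM on a log axis, for LCH with inhibitor, LCH without, WT with inhibitor and WT without, with 1 point per library, a shape per pool and a black line at the mean of the 3 libraries. In 9 genes all LCH points lie below all WT points, and in Mmp8 the groups overlap.

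With the inhibitor in both genotypes, the same 9 genes were called lower in LCH, against 11.1% of all genes lower (and 20.3% changed). Each of the 9 had a larger fold than without inhibitor. Olfm4 reached -4.42 (SE 0.514, edgeR adjusted p = 0.000316) and Ngp -3.91 (SE 0.424, edgeR adjusted p = 0.000246) on the log2 scale. The other log2 fold changes were -3.77 for Camp, -3.57 for S100a9, -3.57 for Mpo, -3.51 for Ltf, -3.19 for S100a8, -3.12 for Elane and -2.14 for Lcn2. For Lcn2 the difference was 4.41 times with inhibitor and 2.14 times without. Every LCH library again lay below every WT library in these 9 genes, as in 19.6% of all genes. Mmp8 had a log2 fold change of 0.12 (SE 0.154, edgeR adjusted p = 0.638), which did not pass the test. The comparisons with and without inhibitor rest on different libraries of the same pools, and the test of their difference is given with the inhibitor results.

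**Figure D2:**
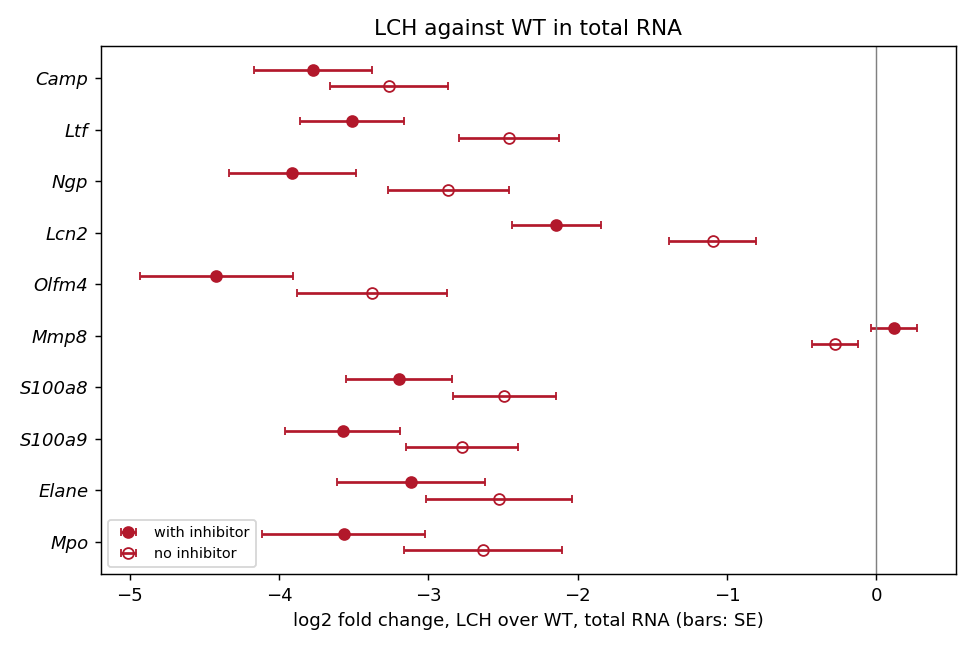
Log2 fold change of LCH over WT in total RNA for each granule gene, with inhibitor (filled) and without (open), with bars of 1 SE and 3 libraries a group. Without inhibitor 9 genes lie between -3.38 and -1.10 and Mmp8 at -0.28.

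Primary and secondary granule genes were set side by side within each library. The fold changes of the primary genes, -2.53 and -2.64, fell inside the range of the secondary genes, which ran from -3.38 for Olfm4 to -0.28 for Mmp8. The count ratio of Mpo to Ngp was 0.0616 to 0.0943 (median 0.0806) in the 6 LCH and 0.0433 to 0.088 (median 0.0602) in the 6 WT total RNA libraries, and these ranges overlapped. The ratio of Camp to Ngp was 0.0332 to 0.0573 (median 0.0461) in LCH and 0.0432 to 0.0656 (median 0.0484) in WT, also overlapping.

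The ratios of 8 of the other members to Ngp were formed, and those of Camp, Mpo, Elane, Olfm4 and S100a9 overlapped between the genotypes, while those of Mmp8, Lcn2 and Ltf did not. Over all 13374 other genes tested, 93.4% had a ratio to Ngp that did not overlap. The ratio of Mmp8 to Ngp counts was 3.15 to 6.42 (median 4.49) in LCH and 0.212 to 0.978 (median 0.449) in WT. That of Lcn2 to Ngp was 1.67 to 2.35 (median 2.01) in LCH and 0.531 to 0.705 (median 0.557) in WT. Ltf to Ngp came to 0.349 to 0.48 (median 0.392) in LCH and 0.273 to 0.341 (median 0.299) in WT. The ratio of S100a8 to S100a9 counts, the calprotectin partners, was 0.691 to 0.764 (median 0.723) in LCH and 0.519 to 0.612 (median 0.581) in WT. The share of all genes whose ratio to S100a9 does not overlap was not computed, so this ratio is a description only. In these 4 ratios no LCH library overlapped a WT library. The ratio of Elane to Mpo overlapped, at 0.332 to 0.77 (median 0.554) in LCH and 0.4 to 0.473 (median 0.439) in WT, as did that of Elane to Ngp, at 0.0263 to 0.0486 (median 0.0465) in LCH and 0.0193 to 0.0369 (median 0.026) in WT. The ratios are descriptions over 3 pools a genotype, each pool read in both inhibitor states.

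Camp, Ngp and Ltf lie on chromosome 9 within 1195 kb of each other in the deposited table, at 109676447 to 109678685 (minus strand), 110248815 to 110252080 (plus) and 110848339 to 110871835 (plus). Mmp8 lies on the same chromosome at 7558457 to 7568486, far from them. S100a8 (90576285 to 90577342, plus) and S100a9 (90599939 to 90603028, minus) are neighbours on chromosome 3 within 26.7 kb. The table places Lcn2 on chromosome 2 (32274645 to 32278264, minus), Olfm4 on chromosome 14 (80221521 to 80260579, plus), Elane on chromosome 10 (79722081 to 79724049, plus) and Mpo on chromosome 11 (87684407 to 87695239, plus). All 10 are listed as protein coding, under ENSMUSG00000038357.11 for Camp, ENSMUSG00000032496.8 for Ltf, ENSMUSG00000032484.9 for Ngp, ENSMUSG00000026822.15 for Lcn2, ENSMUSG00000022026.8 for Olfm4, ENSMUSG00000005800.4 for Mmp8, ENSMUSG00000056054.10 for S100a8, ENSMUSG00000056071.13 for S100a9, ENSMUSG00000020125.8 for Elane and ENSMUSG00000009350.14 for Mpo. The table does not name its build. The labels name mm9, but whether these coordinates are those of mm9 was not checked.

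C/EBP factors, among them C/EBP epsilon, are known to drive secondary granule genes, and the start-site sequences of 5 genes are shown because 4 of these genes fell in LCH and 1, Mmp8, did not pass the test. The sequences are from RefSeq (GRCm38.p6, a build other than that of the table), matched for all 10 genes by symbol, and span 300 bases across each start site. They are Ngp (chr9:110419558-110419857, plus strand), Ltf (chr9:111019042-111019341, plus strand), Camp (chr9:109849407-109849706, minus strand), Mpo (chr11:87793534-87793833, plus strand) and Mmp8 (chr9:7558179-7558478, plus strand). Capitals mark the letters TTNNGNAA or, on the other strand, TTNCNNAA, a loose C/EBP consensus.
Ngp: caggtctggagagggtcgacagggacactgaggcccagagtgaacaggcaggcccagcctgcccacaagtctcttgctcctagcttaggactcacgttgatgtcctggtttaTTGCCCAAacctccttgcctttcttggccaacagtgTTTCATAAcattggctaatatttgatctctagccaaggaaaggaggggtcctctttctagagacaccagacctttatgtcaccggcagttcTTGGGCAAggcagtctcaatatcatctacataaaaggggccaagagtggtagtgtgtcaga
Ltf: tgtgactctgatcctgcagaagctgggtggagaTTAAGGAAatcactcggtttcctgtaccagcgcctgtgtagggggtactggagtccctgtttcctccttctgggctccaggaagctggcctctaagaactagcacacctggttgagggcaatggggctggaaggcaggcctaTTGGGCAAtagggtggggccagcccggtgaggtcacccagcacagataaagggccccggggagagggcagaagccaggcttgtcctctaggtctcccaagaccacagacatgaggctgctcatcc
Camp: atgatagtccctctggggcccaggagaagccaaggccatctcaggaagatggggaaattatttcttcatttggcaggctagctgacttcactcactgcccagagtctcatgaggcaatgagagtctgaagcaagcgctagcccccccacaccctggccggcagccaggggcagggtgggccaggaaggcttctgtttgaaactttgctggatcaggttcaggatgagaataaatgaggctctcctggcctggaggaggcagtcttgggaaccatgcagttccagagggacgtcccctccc
Mpo: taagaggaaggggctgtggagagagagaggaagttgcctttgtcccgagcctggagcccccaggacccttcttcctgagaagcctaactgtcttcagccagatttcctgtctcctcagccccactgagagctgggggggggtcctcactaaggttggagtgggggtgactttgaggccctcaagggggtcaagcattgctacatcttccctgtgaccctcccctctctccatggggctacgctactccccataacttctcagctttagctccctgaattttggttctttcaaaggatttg
Mmp8: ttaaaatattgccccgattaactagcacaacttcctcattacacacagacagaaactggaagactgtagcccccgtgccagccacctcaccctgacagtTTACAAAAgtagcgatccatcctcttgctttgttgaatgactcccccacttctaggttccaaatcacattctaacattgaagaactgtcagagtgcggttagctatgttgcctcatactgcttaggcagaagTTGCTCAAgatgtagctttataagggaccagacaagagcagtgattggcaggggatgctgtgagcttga
The consensus was present 3 times in the Ngp window, 2 times each in those of Ltf, Mmp8 and S100a9, and 1 time each in those of Lcn2, Olfm4 and S100a8. The windows of Camp, Elane and Mpo did not hold these letters. Of 32851 RefSeq promoter windows of this length, 40.7% held the consensus.

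Further genes of the same programme were read from lists, some of which also hold members. Of all genes, 14.9% were lower in LCH without inhibitor and 29.7% changed. Of 6 primary granule genes tested, 6 were lower in LCH without inhibitor and 0 higher, with a median log2 fold change of -2.21, against 0.02 for all genes. Apart from Elane and Mpo they include Ctsg, the granule protease cathepsin G, at 2.42, 1.90 and 2.00 CPM in LCH and 6.15, 19.7 and 23.99 CPM in WT (log2 fold change -2.97, SE 0.507, edgeR adjusted p = 0.00182). Prtn3 (proteinase 3) fell by 1.90 on the log2 scale, a call that was lost without the low-count filter (adjusted p 0.0694), and Ms4a3, a membrane protein of granulocyte progenitors, by 1.80. Of 11 secondary granule genes, 9 were lower and 0 higher, with a median of -2.38. These 11 include the 6 secondary members, whose results are given above. Beyond the members, Cd177, Pglyrp1, Itgb2l and Chil3 were lower and Hp was not called. Cd177, a neutrophil surface protein stored in specific granules, measured 6.50, 5.46 and 2.70 CPM in LCH and 24.2, 31.2 and 53.8 CPM in WT (log2 fold change -2.91, SE 0.403, edgeR adjusted p = 0.000575). Pglyrp1, which binds bacterial cell walls, and Itgb2l, an integrin subunit, fell by 2.21 and 2.38.

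Gelatinase granule genes were split. Of 6 tested, 2 were higher, 1 lower and 3 not called. Mmp9, gelatinase B, was 14.3 times higher, at 573, 623 and 853 CPM in LCH, against 25.5, 64.2 and 53.6 CPM in WT (log2 fold change 3.84, SE 0.424, edgeR adjusted p = 0.000168). Adam8, a membrane protease, was higher by 0.82 and Fcnb, a ficolin of neutrophils, lower, at -1.30, on the log2 scale. Mmp9 and Adam8 are also expressed by macrophages and dendritic cells.

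Of 7 cytosolic S100, stefin and related genes, 3 were lower and 0 higher: S100a8, S100a9 and Wfdc21, whose call was lost without the low-count filter (adjusted p 0.15), without both WT pool A libraries (0.0613), and without LCH pool F, LCH pool G or WT pool C. Stefins Stfa1, Stfa2l1 and Stfa3, near-identical protease inhibitors whose reads may be shared, had log2 fold changes of -0.92, -0.29 and 0.07, and none was called. Of 11 neutrophil surface receptors, 5 were lower and 2 higher. Ly6g, the surface marker most used to define mouse neutrophils, measured 1.42, 1.71 and 1.11 CPM in LCH and 5.71, 4.49 and 7.71 CPM in WT (log2 fold change -2.08, SE 0.423, edgeR adjusted p = 0.00405). The summed level of the receptor list was 495 to 699 CPM in LCH and 378 to 556 CPM in WT, so that these sums overlapped.

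Of 6 transcription factors of granulocyte development, 3 were lower and 1 higher. Gfi1, a repressor needed for neutrophil formation, measured 4.99, 2.83 and 1.48 CPM in LCH and 15.3, 15.9 and 14.3 CPM in WT (log2 fold change -2.30, SE 0.316, edgeR adjusted p = 0.000461). Gata1, a factor of eosinophil, mast and erythroid cells, fell by 3.31 (with the authors' scaling factors by 2.70, adjusted p 0.0702), while Cebpd was higher by 0.83. Cebpe, the gene of C/EBP epsilon, had a log2 fold change of -0.74 (SE 0.237, edgeR adjusted p = 0.0347), a call that was lost when any 1 library other than LCH pool E was left out. Of 10 inhibitors, activators and receptors of granule proteins, 2 were higher and 1 lower, with Serpina3g, an intracellular serine protease inhibitor, higher by 2.18. Of 6 acute-phase genes that LPS induces, 1 was higher (Slpi, by 0.64, a call lost without LCH pool F or WT pool BD, at adjusted p of 0.0559 and 0.0662) and 1 lower (Lcn2).

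Markers of other granulocytes moved with the granule genes. Of 9 eosinophil genes, 7 were lower in LCH and 1 higher, and the list summed to 41.1 to 97.0 CPM in LCH and 405 to 736 CPM in WT. Prg2, the eosinophil major basic protein, measured 23.3, 12.9 and 6.58 CPM in LCH and 433, 269 and 453 CPM in WT. Of 8 mast cell and basophil genes, 5 were lower and 1 higher, with sums of 157 to 201 CPM in LCH and 213 to 349 CPM in WT. Dendritic cell genes were 3 higher and 3 lower of 12, and macrophage and monocyte genes 2 higher and 2 lower of 11, with sums of 1732 to 3366 CPM in LCH and 1858 to 5266 CPM in WT. Every listed gene with a row in the table had counts in LCH in both states. There, pool G had counts in far more genes than any other total RNA pool, and the part of this was not tested. In WT the primary granule gene Bpi and the acute-phase genes Saa1 and Saa2 were at 0 with inhibitor, and the mast cell gene Cma1 and Saa2 without it. The part of these cell types in the lower granule transcripts was not tested.

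Mitochondrially encoded transcripts, often read as a sign of cell or RNA quality, moved with the granule genes too. Across 35 such genes outside the rRNAs, they made up 2.64, 2.35 and 1.75% of total RNA counts in LCH pools E, F and G with inhibitor and 2.69, 3.74 and 2.73% without. In WT pools A, BD and C they made up 6.88, 11.6 and 10.6% with inhibitor and 6.22, 9.70 and 8.48% without. Every LCH library lay below every WT library, pool A was the lowest in WT, and the share was lower with inhibitor in 3 of 3 LCH pools and higher in 3 of 3 WT pools. Its part in the genotype and inhibitor results of the granule genes was not tested.

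Within pools, many granule genes were lower with inhibitor in LCH and higher with it in WT. In LCH, 6 genes were lower with inhibitor in each of the 3 pools (24.3% of all genes were), and in WT 8 were higher in each of the 3 pools (27% of all genes). The genes Mpo, Lcn2, Ngp, Ltf, S100a8 and S100a9 did both, a pattern seen in 6.23% of all genes. Without a term for the pool, 0 of 10 were called in LCH (0.74% of all genes were called), 0 in WT (0.71%) and 0 for the genotype by inhibitor difference (0.404%), by edgeR, DESeq2 and limma alike, with 0, 1 and 2 genes at an unadjusted p under 0.05.

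Libraries of a pool with and without inhibitor deviated together from their group means, so the pool was added to the fit as a block. Over all genes, LCH pool F with inhibitor was as close to pool E without inhibitor (r = 0.354) as to pool F itself (r = 0.353), and the other 5 pools were closest to themselves. With it 5 genes were lower in LCH (9.21% of all genes lower, 17.2% changed), 8 higher and 1 lower in WT (10.5% higher, 11.1% lower, 21.7% changed), and the genotype by inhibitor difference was called for 8 (9.85% lower, 9.88% higher, 19.7% changed). The fits without and with the block thus differ in their calls, and the values below are from the blocked fit.

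Lcn2 showed the pattern plainly. In LCH it measured 138, 117 and 82.0 CPM with inhibitor and 171, 170.0 and 136 CPM without, and in WT 369.8, 430.3 and 687 CPM with inhibitor and 244, 301 and 475 CPM without. The blocked log2 change was -0.53 (SE 0.0662, edgeR adjusted p = 1.71e-05) in LCH and 0.55 (SE 0.0651, edgeR adjusted p = 1.93e-05) in WT. Every LCH pool was lower and every WT pool higher with inhibitor. The difference between the genotypes was -1.08 (SE 0.0929, edgeR adjusted p = 5.95e-07).

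Ngp measured 79.0, 51.8 and 45.3 CPM with inhibitor and 103, 76.6 and 57.8 CPM without in LCH, and 553, 810.5 and 1284 CPM with inhibitor and 346, 562 and 821 CPM without in WT. Its blocked log2 change was -0.43 (SE 0.0595, edgeR adjusted p = 4.28e-05) in LCH and 0.62 (SE 0.0565, edgeR adjusted p = 2.45e-06) in WT. The change of Ngp had 1 sign in each genotype, in all 3 pools. Ltf measured 27.6, 20.1 and 21.8 CPM with inhibitor and 37.0, 30.4 and 25.9 CPM without in LCH, and 166, 242 and 385 CPM with inhibitor and 118, 153 and 242 CPM without in WT. Its blocked log2 change was -0.42 (SE 0.0697, edgeR adjusted p = 0.000267) in LCH and 0.61 (SE 0.0624, edgeR adjusted p = 5.65e-06) in WT. As with Ngp, no pool went against its genotype.

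Calprotectin transcripts followed less evenly. S100a9 measured 102, 79.5 and 70.4 CPM with inhibitor and 117, 104 and 90.6 CPM without in LCH, and 645, 929 and 1433 CPM with inhibitor and 382, 701 and 1052 CPM without in WT. Its blocked log2 change was -0.31 (SE 0.0679, edgeR adjusted p = 0.00337) in LCH and 0.53 (SE 0.0657, edgeR adjusted p = 3.07e-05) in WT. For S100a8 the change was -0.33 (SE 0.111, edgeR adjusted p = 0.0898) in LCH, which was not called, and 0.46 (SE 0.107, edgeR adjusted p = 0.0197) in WT. The WT change of S100a8 was 0.82, 0.34 and 0.22 in pools A, BD and C, largest in pool A, and without pool BD the call was lost (adjusted p 0.0617).

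Among the primary granule genes, Mpo measured 5.22, 4.41 and 2.79 CPM with inhibitor and 8.14, 7.22 and 4.73 CPM without in LCH, and 23.9, 61.4 and 62.1 CPM with inhibitor and 15.8, 49.4 and 59.3 CPM without in WT. The blocked log2 change of Mpo was -0.70 (SE 0.12, edgeR adjusted p = 0.000392) in LCH. In WT it was 0.30 (SE 0.0841, edgeR adjusted p = 0.016), and that call was lost without pool A (0.19, adjusted p 0.13) or pool BD (0.30, adjusted p 0.0902). Elane changed by 0.41, -1.20 and -0.39 in LCH pools E, F and G and by 0.56, 0.44 and -0.001 in WT pools A, BD and C on the log2 scale, and was called in neither genotype with all pools. Without LCH pool E it was called lower in LCH (-0.775, adjusted p 0.0321), and its genotype by inhibitor difference of -0.66 (SE 0.353, edgeR adjusted p = 0.251) became -1.09 (adjusted p 0.00954).

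Camp and Olfm4 were higher with inhibitor in WT without a called change in LCH when all pools were kept. In LCH pools E, F and G, Camp changed by -0.09, 0.03 and 0.10 on the log2 scale, a blocked change of -0.0034. In WT it measured 36.3, 35.4 and 55.5 CPM with inhibitor and 22.4, 27.2 and 39.7 CPM without (blocked log2 change 0.52, SE 0.0783, edgeR adjusted p = 0.000159), and the genotype by inhibitor difference of Camp was -0.52 (SE 0.153, edgeR adjusted p = 0.022). That call was lost without LCH pool E, LCH pool F, WT pool A or WT pool C (adjusted p 0.0516 to 0.151). Olfm4 changed by -0.37, -1.52 and 0.63 in the LCH pools. In WT it had a blocked change of 0.71 (SE 0.173, edgeR adjusted p = 0.0187), which was lost without any 1 WT pool (adjusted p 0.113 to 0.17), and its difference between genotypes was -1.06 (SE 0.349, edgeR adjusted p = 0.0663). Without LCH pool G, where Olfm4 went up, it was called lower in LCH (-0.773, adjusted p 0.044), and the difference was -1.49 (adjusted p 0.000608).

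Mmp8 again went its own way. In LCH it measured 301, 333 and 253 CPM with inhibitor and 324, 364 and 244 CPM without, and in WT 244, 302 and 272 CPM with inhibitor and 339, 416 and 375 CPM without. The LCH pools changed by -0.10, -0.13 and 0.05 on the log2 scale and the WT pools by -0.47, -0.46 and -0.46, nearly the same in each (23.9% of all genes were lower in 3 of 3 WT pools). The blocked change was -0.06 (SE 0.0539, edgeR adjusted p = 0.521) in LCH and -0.47 (SE 0.0542, edgeR adjusted p = 1.53e-05) in WT. The collagenase transcript was thus lower with inhibitor in the same WT cultures in which 8 other granule genes were higher. The genotype by inhibitor difference of Mmp8 was 0.41 (SE 0.0764, edgeR adjusted p = 0.00109).

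**Figure D3:**
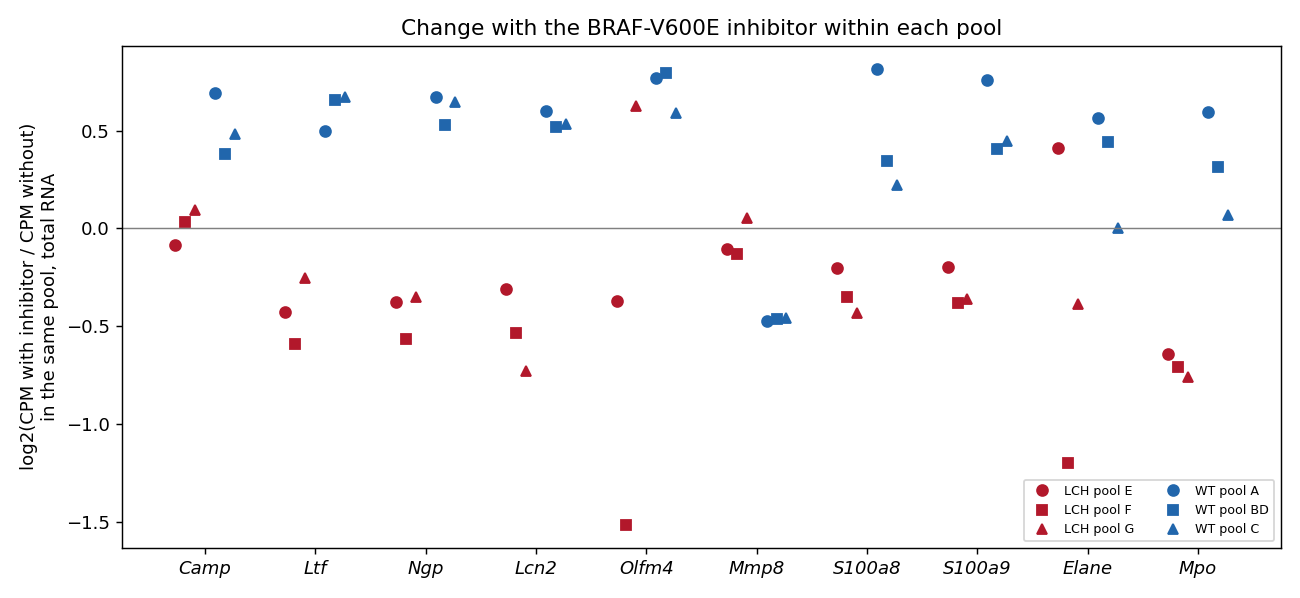
Log2 ratio of CPM with inhibitor to CPM without, in the same pool in total RNA, for LCH pools (red, left of each pair) and WT pools (blue). In Lcn2, Ngp, Ltf, Mpo, S100a8 and S100a9 the LCH points lie below 0 and the WT points above it, and in Mmp8 the 3 WT points lie between -0.47 and -0.46.

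Marker sums of other granulocytes went the same way with inhibitor. The eosinophil list summed to 88.5, 47.1 and 38.9 CPM with inhibitor and 97.0, 53.5 and 41.1 CPM without in LCH pools E, F and G. In WT pools A, BD and C the sums were 901, 539.5 and 953 CPM with inhibitor and 736, 405 and 689 CPM without. The mast cell and basophil list summed to 166, 133 and 139.5 CPM with inhibitor and 201, 157 and 180.0 CPM without in LCH, and to 274, 389 and 476 CPM with inhibitor and 213, 318 and 349 CPM without in WT. In both lists every LCH pool had the lower sum with inhibitor and every WT pool the higher. The mast cell and basophil sum includes Kit, which was higher in LCH than in WT, against most of its list. Without the block, 2 of 8 mast cell and basophil genes and 0 of 9 eosinophil genes were called lower with inhibitor in LCH (0.74% of all genes were called). In WT 0 genes of either list were called. The mitochondrial share given above had the same directions. Their part in the granule gene changes was not tested.

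The members shared an order of the pools. In LCH with inhibitor, pool E was the highest for 9 and pool G the lowest for 7, and without inhibitor E was the highest for 8 and G the lowest for 9. Of all genes, pool E was the highest for 35% with inhibitor and 37.9% without, and G the lowest for 44.1 and 43.5%. The exceptions were Mmp8 (highest in pool F in both states), Elane in both states, and Ltf and Olfm4, lowest in pool F with inhibitor. Pool G also had counts in the most genes, and the part of this in the pool order was not tested. In WT with inhibitor, pool A was the lowest for 9 and pool C the highest for 8, and without inhibitor A was the lowest for 10 of 10 and C the highest for 9. Of all genes, pool A was the lowest for 39.3% with inhibitor and 42.6% without, and C the highest for 25 and 25.5%. Eosinophil sums had another order in WT, with 736, 405 and 689 CPM in pools A, BD and C without inhibitor. Macrophage and monocyte sums without inhibitor were 1732, 2297 and 3366 CPM in LCH pools E, F and G and 1858, 5266 and 3656 CPM in WT pools A, BD and C. With 3 pools a genotype and no pool shared between genotypes, no correlation was computed.

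The 12 total RNA libraries were also used to find the genes most like the members in profile, by Pearson's r of log2 CPM, which mostly reflects the difference between genotypes. With the mean profile of Camp, Ltf and Ngp, the highest r among 13375 genes were 0.998 for Pglyrp1, 0.995 for Itgb2l, Chil1 and Cd177, and 0.993 for Sik1 and Ly6a2. Lcn2 was most like Hsd11b1 (0.989), then Flot1, Ripor2, Ly6c2 and Padi4 (0.974), an enzyme that modifies histones in neutrophils. Elane was most like Ctsg (0.992), then Gm28438 (0.987), mt-Nd1 (0.985), Plac8 and Gm10925 (0.983 each). Mpo was most like Prss34 (0.989), a basophil protease, then Gm13341 (0.988), Prtn3 (0.987), Ctsg (0.986) and Ms4a3 (0.985). mt-Nd1 is a subunit of respiratory complex I encoded by the mitochondrial genome. The libraries fall into genotype clusters, so these values are descriptions.

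In LCH the polysome libraries were deep enough to compare with total RNA of the same culture, with 3206636 to 18002038 counts outside 4 rRNA-type genes. Pool GH of polysome RNA was taken as pool G of total RNA, an assumption that no label settles. The granule genes split in this comparison, with 4 higher in polysome RNA, 1 lower and 5 not called without inhibitor (14.8% of 14816 genes were higher and 14.6% lower, 29.5% in all). CPM in this comparison was scaled over the 12 LCH libraries of both fractions. The median log2 difference of all genes was -0.24 with and -0.26 without inhibitor. With the authors' scaling factors it was -0.60 with and -0.79 without inhibitor, so a gene's value is best read against this median.

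In polysome RNA, S100a9, the larger calprotectin subunit, measured 694, 874 and 458 CPM in pools E, F and GH. In total RNA it measured 78.2, 69.0 and 61.3 CPM in pools E, F and G. The log2 difference was 3.24 (SE 0.267, edgeR adjusted p = 1.9e-07), or 9.43 times. Camp measured 24.6, 25.9 and 11.6 CPM in polysome RNA and 3.20, 1.75 and 1.30 CPM in total RNA, a log2 difference of 3.31 (SE 0.368, edgeR adjusted p = 1.73e-06). S100a8 measured 316, 380.1 and 219 CPM in polysome RNA and 54.1, 49.6 and 46.8 CPM in total RNA. Its log2 difference was 2.57 (SE 0.278, edgeR adjusted p = 7.52e-06). In these 3 genes every polysome library lay above every total RNA library. The share of all genes with this separation was not computed, so it is a description only. By the test, which is a different rule, 14.8% of all genes were higher in polysome RNA. Ltf was higher by 1.11 (SE 0.254, edgeR adjusted p = 0.00253), a call that was lost without the polysome library of pool E (0.91, adjusted p 0.0637).

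Mmp8 was the 1 gene lower on polysomes, at 83.5, 60.4 and 74.2 CPM in polysome RNA and 216, 242 and 165 CPM in total RNA. The log2 difference was -1.50 (SE 0.208, edgeR adjusted p = 2.08e-05), or 2.83 times lower. All 3 cultures showed it. Ngp, a close relative of Camp, differed by 0.24, -2.33 and 0.14 on the log2 scale in pools E, F and G. Pool F had 39 Ngp counts in polysome RNA against 1570 in total RNA and lay apart from the others, and the fitted difference of -0.52 was not called. It was called lower, at -1.03 to -0.80, without the low-count filter or without a library of pool E or G. Lcn2 (0.22), Elane (1.22), Mpo (0.68) and Olfm4 (-1.36) were not called, and Olfm4 had 0 counts in polysome RNA of pool F in both inhibitor states.

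With inhibitor, 5 granule genes were higher on LCH polysomes and 1 lower (12.9% of all genes higher, 17.2% lower, 30.1% called). The log2 differences were 3.34 for S100a9, 3.11 for Camp, 2.69 for S100a8, 1.38 for Ltf and -1.41 for Mmp8. Mpo joined at 1.41 (SE 0.518, edgeR adjusted p = 0.0473), and its call was lost without the low-count filter, without the rRNA-type genes and without a pool E or pool G library. The inhibitor effect on this difference was called for 0 of 10 genes by edgeR and by DESeq2, with 0 of 10 at an unadjusted p under 0.05, and for 0% of all genes (205 genes at an unadjusted p under 0.05).

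The list of cytosolic S100, stefin and related genes includes the calprotectin subunits S100a8 and S100a9. Of its genes tested, 7 of 7 (5 besides these subunits) were higher in polysome RNA of LCH in both inhibitor states. Of all genes, 12.9% were higher with inhibitor and 14.8% without. The stefins among them are near-identical, and their reads may be shared. The median log2 difference of the list was 2.92 without inhibitor. Wfdc21 was higher by 3.16 and Stfa3 by 2.92. Of 6 primary granule genes, 1 was higher without inhibitor, Prtn3 at 2.64. Of 11 secondary ones, members included, 4 were higher and 1 lower. Camp and Ltf are among the 4, and Mmp8 is the 1 lower. Beyond the members, Pglyrp1 was higher by 2.60. Gelatinase granule genes were 1 higher and 4 lower of 6.

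**Figure D4:**
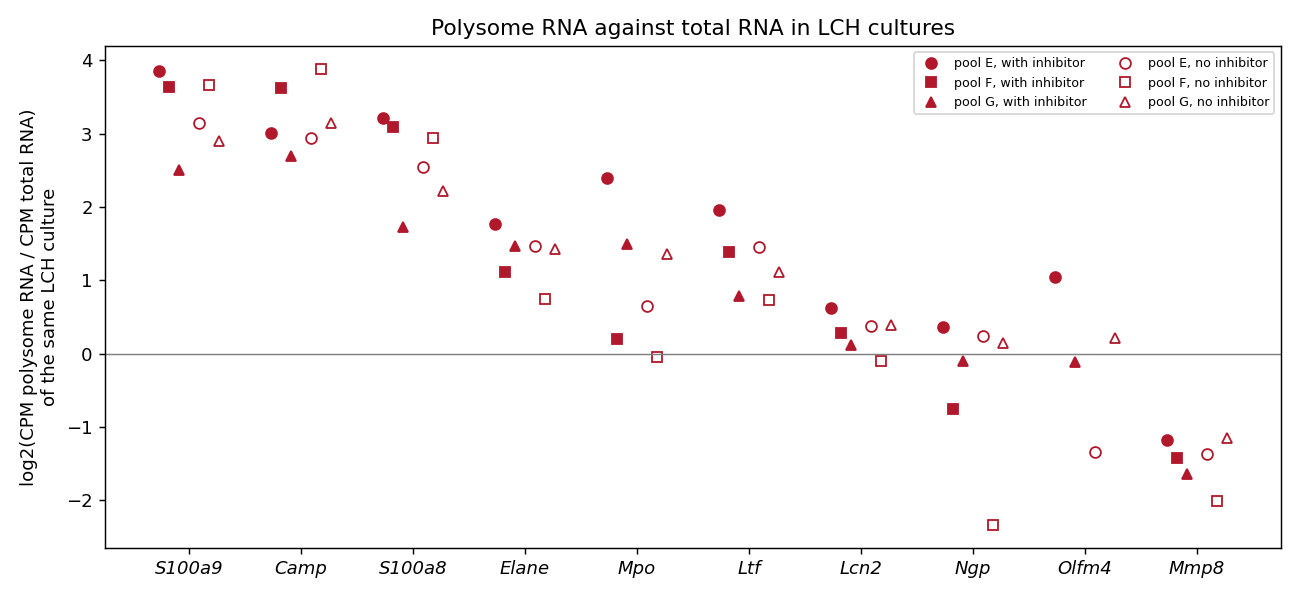
Log2 ratio of CPM in polysome RNA to CPM in total RNA of the same LCH culture, with inhibitor (filled, left of each pair) and without (open), for pools E, F and G, with genes ordered from S100a9 to Mmp8. Polysome pool GH is drawn as pool G. S100a9, Camp and S100a8 lie well above 0 in every culture and Mmp8 lies below 0 in every culture, while Olfm4 of pool F, with 0 polysome counts, is not drawn.

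In WT the polysome libraries could not carry the same comparison. They held 24065 to 1171449 counts outside the rRNA-type genes, and those genes made up 18 to 65.1% of the polysome counts in LCH and 71.4 to 99.2% in WT. In the 6 LCH polysome libraries, Olfm4 had 0 counts in 2 and none of the other 9 genes was at 0. In the 6 WT polysome libraries, Camp, Elane, Mpo and Olfm4 had 0 counts in 5, Ltf in 4, Lcn2 and Ngp in 3, and Mmp8, S100a8 and S100a9 in 1.

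LCH against WT polysome RNA was called for 0 of 9 genes without inhibitor by edgeR (22.1% of 9902 genes were called, 3502 at an unadjusted p under 0.05), with 1 of 9 at an unadjusted p under 0.05, 1 called by DESeq2 and 0 by limma. The median log2 fold change of all genes was 6.95 with inhibitor and 1.62 without, so the whole scale lay toward LCH. With inhibitor 4 of 9 were called higher in LCH (Mpo, Elane, Ltf and Camp), near the 39.5% of all genes higher (40.6% called). All 4 were at 0 in every WT library with inhibitor and passed the low-count filter only through their LCH libraries. The direction of these calls was thus fixed in advance, and they are not read as a genotype difference. These 4 calls were 2 by DESeq2 and 0 by limma, and 0, 2 and 2 without WT pool BD, WT pool A or LCH pool E. The LCH counts behind them ran from 13 for Elane to 1421 for Ltf. WT pool BD, the deepest, had 740 Ngp, 1572 Mmp8 and 169 Ltf counts without inhibitor. Relative to counts outside the rRNA-type genes, Mmp8 came to 55.7 to 108 CPM in the 6 LCH libraries, to 0, 1926 and 148 CPM in WT pools A, BD and C with inhibitor (0, 871 and 8 counts), and to 2078, 1342 and 538 CPM in them without (50, 1572 and 60 counts). The inhibitor effect in polysome RNA was called for 0 of 9 genes in LCH and 0 of 9 in WT by edgeR (0% of all genes in each, with 38 and 3455 genes at an unadjusted p under 0.05), with 0 and 3 of the 9 at an unadjusted p under 0.05. DESeq2 called 0 and 1 of them, and limma 0 and 0. With the pool as a block, 1 of 9 was called in WT, against 26.9% of all genes.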

How the data were processed

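Total and polysome RNA of 24 libraries (8 groups of 3) were measured. The authors deposited raw counts per gene model. The submitters' processing notes name Salmon, DESeq2 and mm9 with no role or version. The authors also deposited normalised counts (a signal divided by a factor for each gene and library, called DESeq2 counts per the file headers) and regularised log2 values for total and polysome RNA, which served here as alternatives. All main results rest on the raw counts.

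Columns carry pool letters (E, F, G or GH for LCH, A, BD, C for WT), not the labels' replicate numbers, and were assigned to groups by genotype, inhibitor and fraction. Pools G and GH were treated as 1 pool. Counts were tested with edgeR 4.0.16 (R 4.3.3, quasi-likelihood, robust, TMM, filterByExpr with a minimum count of 10), with 12 total RNA, 12 polysome or 12 LCH libraries a fit, the last with culture as a block. P-values were two-sided, adjusted by Benjamini-Hochberg over all genes, and called under 0.05. Without a block they rest on the spread between libraries of a group, with both libraries of a pool in a fit taken as independent. With a block they rest on the spread within pools or cultures. Either spread may be technical. SE derives from the test statistic. DESeq2 1.42.0 and limma 3.58.1 (on the log2 values) were alternatives, with others on scaling, filters, rRNA-type genes (Rn18s, Lars2, mt-Rnr1, mt-Rnr2), pools and single libraries. The tests were checked on simulated data.

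Pairing by pool was checked by correlating same-pool deviations between inhibitor states over genes. The correlations were 0.522, 0.353 and 0.736 in LCH (pools E, F, G) and 0.504, 0.466 and 0.136 in WT (A, BD, C) total RNA, all above 0.1. In WT polysome RNA 1 was 0.016, and no block was accepted there.

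The members and lists were chosen with earlier results of these data known. Genes named beside the members are up to 4 per list with the smallest p in LCH against WT without inhibitor, and the genes most like the members in profile, of which only part is printed; list genes named for polysome RNA or for being at 0 were chosen after their values were seen. Strand of the counting is not given in the sources used here.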

Additional observations from a re-analysis of the deposited data

Results flagged for a closer look

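The change with inhibitor differed between LCH and WT total RNA for 8 of the 10 granule genes. The test was edgeR's for the genotype by inhibitor difference, with the pool as a block, by which 19.7% of 13375 genes were called. Without the block 0 of 10 were called by edgeR, DESeq2 or limma. The log2 difference, LCH minus WT, was -1.08 for Lcn2, -1.05 for Ngp, -1.03 for Ltf, -0.998 for Mpo, -0.85 for S100a9, -0.79 for S100a8 and -0.52 for Camp. For Mmp8 it had the other sign, at 0.41. Lcn2, Ngp, Ltf, Mpo, S100a8 and S100a9 were lower with inhibitor in 3 of 3 LCH pools and higher in 3 of 3 WT pools. Lcn2, Ngp, Ltf, Mpo, S100a9 and Mmp8 were called when any 1 pool was left out. S100a8 was not called without LCH pool F (adjusted p 0.0715), nor Camp without LCH pool E, LCH pool F, WT pool A or WT pool C (0.0516 to 0.151). Groups of 3 libraries are too small for a test of single outlying libraries.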

How the results depend on the processing

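The 9 genes lower in LCH with inhibitor were 9 under all alternatives, and without inhibitor 8 or 9. Leaving out 1 library gave 8 to 9 called without inhibitor and 9 with it. No paired analysis was possible for LCH against WT because the genotypes share no pool. With the replicate block the calls were 5 for the inhibitor in LCH (5 to 6 when a pool was left out), 9 in WT (6 to 8 when a pool was left out), and 8 for their difference (6 to 9), against 0 without it, so these results depend on the pairing. Without the low-count filter 1 gene was called for the inhibitor in WT. In polysome RNA, LCH against WT without inhibitor called 1 gene by DESeq2 and 1 without both WT pool A libraries (0 to 1 when 1 library was left out). With inhibitor, where 4 were called, the count was 0 with DESeq2 size factors, without the filter, with the authors' factors and by limma, 2 by DESeq2 and with the compared groups only, and 0 to 4 when 1 library was left out. The inhibitor in WT polysome RNA called 1 gene by DESeq2, 1 with the block, 1 without both WT pool A libraries, and 0 to 1 when 1 library was left out. With another prior count or without the rRNA-type genes, WT pool A was again the lowest WT pool in 19 gene and state pairs.

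Some signs turned. None of these values was called at the main settings, and with the block Mpo in WT was (0.30). For the inhibitor change in LCH, Mmp8 ran from -0.217 to 0.064 and 0.03 when 1 library was left out, Olfm4 from -0.773 to 0.037 and Elane from -0.775 to 0.026 in the block when a pool was left out (above 0 without pool F, and called at -0.773 and -0.775). In WT, Elane ran from -0.096 to 0.598 and Mpo from -0.148 to 0.590 (below 0 without WT pool A). Stfa3 in LCH against WT ran from -0.153 to 0.364. In the polysome against total comparison, Lcn2 turned to -0.036 without the filter and to -0.021 with and -0.278 without inhibitor under the authors' factors. Ngp ran from -0.498 to 0.057 with inhibitor and from -1.027 to 0.169 without it (above 0 without pool F). Olfm4 with inhibitor was 0.419 with no replicate block and ran from -1.256 to 0.410 when 1 library was left out. The cause was not tested. Low depth limits what WT polysome RNA can show.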

Other observations

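Genes of the resident cells of these cultures moved in both directions in LCH without inhibitor. Cd209a, a lectin of dendritic cells, measured 15.7, 10.2 and 11.6 CPM in LCH pools E, F and G, against 2.38, 1.90 and 1.85 CPM in WT pools A, BD and C (log2 fold change 2.61, SE 0.255, edgeR adjusted p = 5.05e-05). Kmo, an enzyme of tryptophan breakdown, and Dpp4, a surface peptidase of conventional dendritic cells, were higher by 2.35 and 2.71, while Irf4, a dendritic cell transcription factor, fell by 1.08. No LCH library of Cd209a overlapped a WT library, and the share of all genes with every LCH library above every WT library was not computed.

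Among mast cell and basophil genes, Kit, the stem cell factor receptor, went against its list. It measured 49.3, 33.9 and 41.6 CPM in LCH and 18.2, 12.7 and 14.3 CPM in WT (log2 fold change 1.47, SE 0.172, edgeR adjusted p = 0.000159). Mcpt8, a basophil protease, measured 2.75, 2.10 and 1.15 CPM in LCH and 17.0, 48.9 and 54.6 CPM in WT (log2 fold change -4.35, SE 0.639, edgeR adjusted p = 0.000992), with WT pool A lowest as for the neutrophil genes. Ms4a2, a subunit of the IgE receptor, fell by 4.17.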
